A study of Mus musculus with 7 samples.

Results

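Genes that control splicing were followed across the cell types of mouse pancreatic islets, both in their level and in the kinds of transcript they made. The set held 50 named genes of 23465 in the gene tables: 12 SR and Tra2 proteins, 9 Mbnl and Celf genes, 9 Rbfox, Nova and Elavl genes, 3 Ptbp genes, 4 Esrp and Srrm genes, 4 STAR genes (Khdrbs1, Khdrbs2, Khdrbs3 and Qk), 5 hnRNP genes, and Clk1, Clk4, Rbm39 and Snrnp70. They were taken by name from a list, not by a measured value, and all 50 were found. The series held 7 islet libraries in 4 groups, from droplet single-cell cDNA depleted of insulin transcripts with Cas9 where the labels say so. The values here come from the 2 long-read libraries, replicates 1 and 2, of a modified 5′ protocol with added nucleotides and longer extension steps, made from islets of female mice aged 10 weeks and read on a Nanopore sequencer. No label ties the libraries to separate animals. The library is a block in the tests, so the p-values measure only how far differences between types vary between these 2 libraries.

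SR proteins bind exons and help the spliceosome to find them, and the Clk kinases phosphorylate SR proteins. Many of these genes regulate themselves through a poison exon, an exon whose inclusion brings a premature stop codon and marks the transcript for nonsense-mediated decay, or through an intron that is kept in the transcript. Other regulators are tissue restricted: Celf, Elavl, Nova, Rbfox and Srrm members are known from neurons, and several are also expressed by the hormone-secreting cells of the islet, whereas Qk and Mbnl proteins act in many cell types.

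Decay transcripts were read in 25 of the 40 listed genes with at least 50 transcript UMIs in each library, and 17 of the listed genes had a decay transcript with 10 or more UMIs. Of all 8744 protein-coding genes with at least 50 transcript UMIs in each library, 6982 had no decay UMI in either. A UMI is a molecular tag that counts 1 cDNA molecule, and a decay transcript here is one that GENCODE M21 labels as a target of nonsense-mediated or non-stop decay, so the word describes an annotation and not a measured loss of RNA. In 8 of these 17 genes the most abundant decay transcript held a cassette exon absent from the coding transcripts, in 6 the usual stop codon was followed by a later intron, in 2 an exon shared with the coding transcript was read in another frame, and in 1 an exon had another end. The stop-bearing exons of 7 of the 8 genes with the largest decay share are shown because the later results turn on them. Each is read from the first base of the exon to the stop codon, except Srsf2-202, which gives its last 160 bases; the stop codon is in capitals and the sequences are those of the GENCODE M21 transcripts on GRCm38 (mm10).
Srsf7-203: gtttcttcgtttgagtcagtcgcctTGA
Srsf3-201: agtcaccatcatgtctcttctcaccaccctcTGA
Tra2a-202: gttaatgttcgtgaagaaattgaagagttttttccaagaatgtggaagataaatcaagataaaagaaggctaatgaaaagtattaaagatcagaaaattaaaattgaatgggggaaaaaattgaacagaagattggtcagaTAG
Hnrnpa1-203: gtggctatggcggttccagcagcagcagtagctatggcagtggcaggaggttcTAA
Qk-202: gtatggctttcccaacgaaaggcTAA
Srsf2-202: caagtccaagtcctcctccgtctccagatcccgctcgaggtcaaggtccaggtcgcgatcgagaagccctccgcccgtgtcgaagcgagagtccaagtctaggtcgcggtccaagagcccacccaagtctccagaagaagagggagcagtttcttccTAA
Clk1-210: atgaaattgttgatacttTAG
The first 3 are cassette poison exons. Exon 4 of the 9 exons of Srsf7-203 is 460 bases long (chr17:80204622-80205081, minus strand) and the printed bases lie at chr17:80205054-80205081. Exon 4 of the 7 exons of Srsf3-201 is 456 bases long (chr17:29039454-29039909, plus strand), with the printed bases at chr17:29039454-29039487. Exon 2 of the 9 exons of Tra2a-202 is 306 bases long (chr6:49252803-49253108, minus strand), with the printed bases at chr6:49252965-49253108. Hnrnpa1-203 (exon 9 of 11, chr15:103243959-103244014, plus strand), Qk-202 (exon 7 of 8, chr17:10214169-10214194, minus strand) and Srsf2-202 (exon 2 of 5, chr11:116852028-116852187, minus strand) carry their stop before further exons. Clk1-210 skips a coding exon of 91 bases (chr1:58420121-58420211, minus strand), and the changed frame meets a stop in exon 4 of 12 (chr1:58419713-58419733).

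The first library kept 4814 of 6395 barcodes with 11012364 UMIs and a median of 2110 UMIs per cell, and the second kept 1093 of 2124 barcodes with 12092393 UMIs and a median of 9949. The libraries shared 5 barcodes. Cell types were those of the authors' deposited clusters, and UMIs were summed per type and library. The alpha, delta, PP and beta sums were led by their own hormone markers, but the cells labelled delta formed 6 clusters with other markers among them, so they are called the delta class. Delta markers stood highest in clusters 3, 7 and 8, alpha markers in cluster 12, cycling markers in cluster 14, and neuron markers in cluster 16, which had 7 cells in each library. The neuron marker sum was 998 and 1432 CPM (counts per 1000000 UMIs) in the delta class, against 155 and 164 in beta cells. Of the 26 cells labelled endothelial in the second library 16 lay in a cluster led by duct markers, against 12 of 141 in the first. The duct marker sum of endothelial cells was 15760 CPM in the second library and 3451 in the first. Their endothelial marker sum was 2791 CPM in the second library and 12647 in the first. In the second library the duct-marker cluster had a median of 18630 UMIs per cell, against 5406.5 in the other endothelial cluster. The endothelial sum of the second library was thus led by duct markers, and endothelial is used below as the authors' label. A list of 16 immediate-early and stress genes summed to 6430 and 11442 CPM in alpha cells, 3418 and 7214 in the delta class, 6580 and 17141 in PP cells and 2212 and 2901 in beta cells, so every other endocrine type stood above beta cells, and the PP cells of the second library stood highest. Its part in the results that follow was not tested.

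Rbm39, a splicing factor related to U2AF, was the most abundant listed gene, at 609 CPM in the first library and 648 in the second over all kept cells. Levels are CPM of the library or cell-type sum; they count molecules and are not divided by transcript length. Among SR and Tra2 genes Srsf11 was highest (258 and 268) and Srsf4 lowest (22.0 and 24.9), so even the lowest SR gene was read in both libraries. Among the splicing-repressing hnRNPs Hnrnpk stood at 238 and 255 and Hnrnph1 at 95.3 and 106. The tissue-restricted families were less even. Elavl4, a neuronal RNA-stability and splicing factor, was at 64.3 and 74.2 while Elavl3 was at 1.73 and 2.40. Mbnl2 was at 169 and 173 and Celf5 at 2.36 and 1.98. Esrp1, the epithelial splicing regulator, was at 43.6 and 38.2 and its relative Esrp2 at 2.27 and 2.73. Of the Ptbp repressors Ptbp3 was highest at 192 and 131 and Ptbp2, the form known from neurons, lowest at 22.3 and 26.0. Khdrbs1 was at 54.8 and 50.9 and Khdrbs2 at 3.45 and 6.62. Clk4 was the lowest of its group at 43.5 and 59.1.

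**Figure D1:**
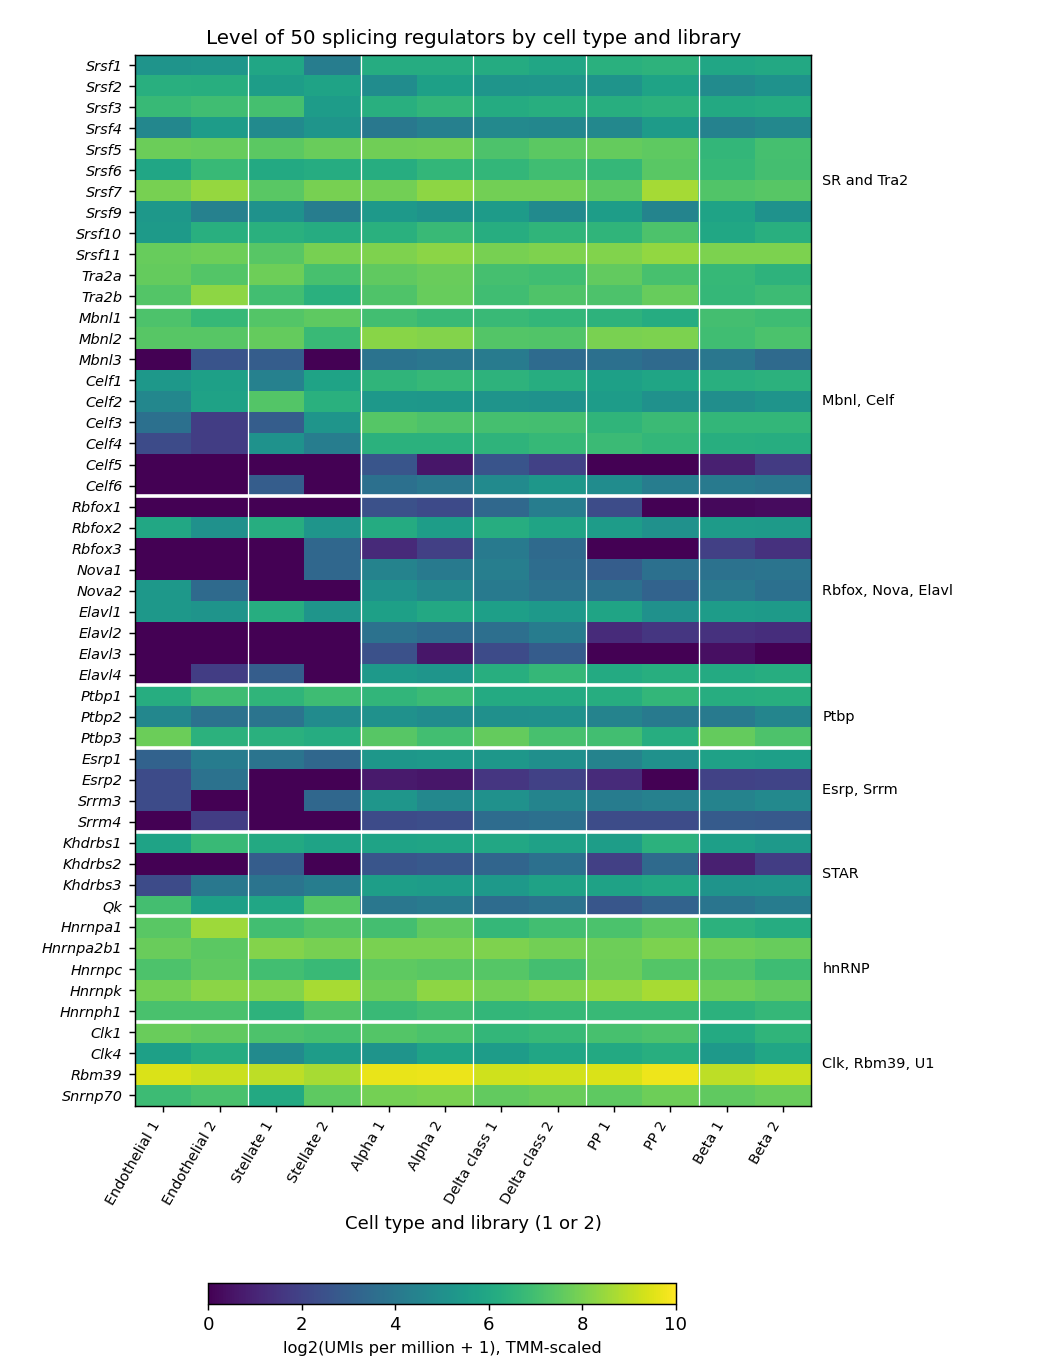
Level of the listed genes in each cell type and library, as CPM scaled by TMM on a log colour scale; rows are genes ordered by role and columns are the 2 libraries of each type. SR, hnRNP and Rbm39 rows are above 0 in every column, whereas Celf3, Celf4, Elavl4 and Srrm3 are higher in the endocrine columns and Qk is higher in endothelial and stellate columns.

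Alpha cells carried more of several SR and Tra2 genes, Mbnl2, Clk1 and Elavl2 than beta cells, and less Elavl4. Of the 47 listed genes that could be tested, 11 rose in alpha cells relative to beta cells, 1 fell and 35 did not pass the threshold; Celf5, Elavl3 and Esrp2 had too few UMIs. Over all 13265 genes tested 9.13% rose and 9.91% fell. The median log2 fold change of the 47 was 0.34, beside 0.02 over all genes tested. All adjusted p-values of levels are from edgeR's quasi-likelihood test with Benjamini-Hochberg adjustment over all genes, with the standard error (SE) of the log2 fold change, and levels by type are scaled by TMM. The cell labels were made from the same gene counts, so differences between labelled types are in part set by the labels. Of the 16 stress and early genes 11 rose in alpha cells and none fell.

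Elavl2, a neuronal Hu protein, had 12.5 and 10.2 CPM in alpha cells, against 1.69 and 1.48 in beta cells (log2 fold change 2.76, SE 0.51, adjusted p = 0.000206). Mbnl2, a muscleblind protein that shapes late developmental splicing, had 296 and 286 in alpha cells, against 122 and 145 in beta cells (1.12, SE 0.22, adjusted p = 0.000375). Both libraries showed these rises and the groups did not overlap. Genes called here and below passed the test on these same libraries. Agreement between the libraries, or sums that do not overlap, is thus no further evidence. Among the SR and Tra2 genes, which promote exon inclusion, Tra2a had 190 and 207 in alpha cells, against 102 and 88.4 in beta cells (1.07, SE 0.22, adjusted p = 0.00045). Srsf5 had 226 and 232 in alpha cells, against 97.3 and 133 in beta cells (1.00, SE 0.22, adjusted p = 0.000962). Tra2b (150 and 206 in alpha cells, against 99.3 and 116 in beta cells) and Srsf7 (233 and 317, against 153 and 167) followed with log2 fold changes of 0.71 and 0.75 and adjusted p-values of 0.0262 and 0.0286. So 4 of the 12 SR and Tra2 genes rose and none of the 12 fell; without TMM 2 rose, Tra2a and Srsf5, and 3 fell, Srsf4, Srsf6 and Srsf9.

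Clk1, a kinase of SR proteins, had 159 and 141 CPM in alpha cells, against 68.5 and 93.5 in beta cells (0.90, SE 0.21, adjusted p = 0.0028). Hnrnpa1, a splicing repressor, had 128 and 186 in alpha cells, against 84.1 and 73.0 in beta cells (0.95, SE 0.24, adjusted p = 0.00389). Nova2, a neuronal splicing factor, had 32.8 and 24.7 in alpha cells, against 15.6 and 11.8 in beta cells (1.07, SE 0.28, adjusted p = 0.00594). Each of these genes was higher in alpha cells in both libraries. Celf3 had 163 and 147 in alpha cells, against 97.3 and 97.3 in beta cells (0.67, SE 0.22, adjusted p = 0.0319). Rbfox1 rested on few molecules, 7 and 7 UMIs in alpha cells and 1 and 1 in beta cells, a pooled ratio of 22.0 with an exact 95% counting interval of 5.05 to 199 (adjusted p = 0.00259). Elavl4 was the gene that fell, with 41.3 and 36.5 in alpha cells, against 67.6 and 74.9 in beta cells (-0.88, SE 0.23, adjusted p = 0.00554). With no TMM scaling all genes had a median of -0.39, the split became 5 higher and 7 lower, and Clk1, Hnrnpa1, Nova2, Tra2b, Srsf7 and Celf3 missed the threshold with their signs kept. Without the replicate block of library the number past the threshold was 5 in place of 12, and with sums thinned to the smallest total per library it was 1.

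PP cells carried more of several SR and Tra2 genes, Hnrnpa1, Hnrnpk, Mbnl2 and Clk1 than beta cells, and less Ptbp3 and Esrp1. This comparison uses the same beta sums as that of alpha cells. Of 47 listed genes 9 rose in PP cells relative to beta cells, beside 8.89% of all genes, 2 fell, beside 8.43%, and 36 did not pass. The median log2 fold change was 0.21, beside -0.03 over all genes. Of the 16 stress and early genes 12 rose in PP cells and none fell. SR and Tra2 genes accounted for 5 of the 9: Tra2a had 191 and 135 CPM in PP cells, where beta cells had 102 and 88.4 (0.78, SE 0.23, adjusted p = 0.0188), and Srsf5 had 195 and 183 in PP cells, where beta cells had 97.3 and 133 (0.73, SE 0.23, adjusted p = 0.0248). Srsf10, an SR protein that can repress splicing, had 91.1 and 147 in PP cells, where beta cells had 60.7 and 78.9 (0.74, SE 0.23, adjusted p = 0.0222). Srsf7 had 177 and 400, against 153 and 167 (0.77, adjusted p = 0.0359), and Tra2b 147 and 203, against 99.3 and 116 (0.68, adjusted p = 0.0496). These 5 were higher in PP cells in both libraries, most of all in the second for Srsf7, and without TMM none of the 12 SR and Tra2 genes passed.

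Hnrnpa1 had 142 and 181 CPM in PP cells, where beta cells had 84.1 and 73.0 (1.00, SE 0.25, adjusted p = 0.00527). Hnrnpk, which binds C-rich RNA, had 328 and 408 in PP cells, where beta cells had 222 and 191 (0.80, SE 0.24, adjusted p = 0.0191). Mbnl2 had 250 and 257, against 122 and 145 (0.92, SE 0.23, adjusted p = 0.00535), and Clk1 had 137 and 147, against 68.5 and 93.5 (0.81, SE 0.23, adjusted p = 0.0146). The ranges of PP and beta cells did not overlap for any of these 4 genes, which were called on the same sums. Ptbp3 and Esrp1 fell in PP cells. Ptbp3 had 123 and 74.3 in PP cells, where beta cells had 200 and 146 (-0.83, SE 0.25, adjusted p = 0.0195), and Esrp1 had 21.4 and 32.1, against 51.4 and 48.7 (-0.95, SE 0.30, adjusted p = 0.028). Without TMM the median of all genes was -0.42, all 9 rises missed the threshold with their signs kept, and the split was 0 higher and 5 lower. The count of 11 became 0 without the replicate block, 4 with no filter on low counts and 0 with thinned sums.

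Rbfox1, Rbfox3, Elavl2, Khdrbs2, Celf6 and Ptbp2 rose in the delta class over the same beta sums. Of 47 listed genes 6 rose in the delta class relative to beta cells, beside 8.78% of all genes, none fell, beside 5.01%, and 41 did not pass; none of the 12 SR and Tra2 genes passed. With edgeR 1 member was lower and 2 SR or Tra2 genes were higher at an unadjusted p under 0.05, and DESeq2 also called 0 lower members and 0 SR or Tra2 genes. Of the 16 stress and early genes 11 rose in the delta class and none fell. The median log2 fold change was 0.24, beside 0.00 over all genes. Rbfox1, which binds UGCAUG motifs in neurons and muscle, had 24 and 78 UMIs in the delta class and 1 and 1 in beta cells, a pooled ratio of 79.0 with a counting interval of 21.3 to 662 (adjusted p = 1.14e-06). Its relative Rbfox3, the neuronal antigen NeuN, had 15.8 and 9.96 CPM in the delta class, against 2.71 and 1.69 in beta cells (2.49, SE 0.51, adjusted p = 0.000814). Elavl2 had 11.4 and 17.1, against 1.69 and 1.48 (3.12, SE 0.46, adjusted p = 1.29e-05). The STAR protein Khdrbs2 had 8.66 and 12, against 0.847 and 2.54 (2.63, SE 0.53, adjusted p = 0.000606). Celf6 had 26.8 and 38.2, against 16.3 and 14.4 (1.09, SE 0.25, adjusted p = 0.00272), and Ptbp2 had 31.1 and 32.0, against 15.9 and 22.4 (0.73, SE 0.24, adjusted p = 0.0367). The delta class was the higher group in both libraries for all 6, which were called on these same libraries.

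These genes did not lie in the same cells of the delta class. Cluster 16, the cells with neuron markers and a median of 12443 and 45677 UMIs per cell, held 22 of 24 and 76 of 78 Rbfox1 UMIs, 25 of 29 and 60 of 74 Elavl2 UMIs, 29 of 68 and 80 of 165 Celf6 UMIs, and 8 of 79 and 23 of 138 Ptbp2 UMIs. Cluster 3, the largest with delta markers, held 0 and 1 Rbfox1 UMI and 3 and 3 Elavl2 UMIs, but 26 of 40 and 27 of 43 Rbfox3 UMIs and 10 of 22 and 24 of 52 Khdrbs2 UMIs. It held 435 of 965 and 157 of 318 cells of the delta class, so its part of Khdrbs2 was near its part of the cells. Rbfox3 was thus mainly in delta-marker cells, and Rbfox1 almost entirely in the neuron-marker cluster. Without cluster 16 the count of 6 became 2: Khdrbs2 (2.67, adjusted p = 0.000567) and Rbfox3 (2.52, adjusted p = 0.000752) passed, whereas Elavl2 (0.73, adjusted p = 0.61), Celf6 (0.31, adjusted p = 0.584) and Ptbp2 (0.61, adjusted p = 0.112) missed the threshold and Rbfox1 had too few UMIs for the test. With cluster 3 as the only delta cluster 9 listed genes rose, of which only Rbfox3 was among the 6. The rest of these 9 are not named here, and no share over all genes is given for that setting. Celf6 (0.39, adjusted p = 0.438) and Ptbp2 (0.58, adjusted p = 0.152) missed the threshold in it. Rbfox1, Elavl2 and Khdrbs2 were not tested in it. The list of 6 is thus one of the mixed class and not of delta-marker cells alone. With thinned sums 0 passed.

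Cells labelled endothelial and stellate differed from the endocrine types in which tissue-restricted regulators they carried. The endothelial values of the second library come from the sum led by duct markers. Of 47 listed genes 6 rose in the non-endocrine types relative to the 4 endocrine types, beside 13.6% of all genes, 11 fell, beside 17.1%, and 30 did not pass. The median log2 fold change was -0.36, beside -0.25 over all genes. Celf3 had 11.8 and 2.51 CPM in endothelial cells and 6.65 and 36.2 in stellate cells, against 91.1 to 163 in the 8 endocrine sums, with a median of 119 (-3.42, SE 0.36, adjusted p = 8.65e-09). Celf4 had 3.93 and 2.51 in endothelial cells and 33.2 and 18.1 in stellate cells, against 73.8 to 111 with a median of 86.6 (-3.27, SE 0.36, adjusted p = 2.42e-08). Both genes, known from neurons, were lower in each of the 4 non-endocrine sums than in any endocrine sum. Elavl4 had 2 UMIs over the non-endocrine sums and 1603 over the endocrine sums, a level 33.2-fold higher in the endocrine types with a counting interval of 9.16 to 274 (adjusted p = 3.88e-08). Celf6 had 1 UMI against 472, and was 19.5-fold higher in the endocrine types (3.49 to 773, adjusted p = 0.000521). Srrm3, an activator of neuronal microexons, had 2 UMIs against 544, and was 11.3-fold higher in the endocrine types (3.10 to 93.1, adjusted p = 0.000782). Nova1 had 1 UMI against 305, and was 12.6-fold higher in the endocrine types (2.25 to 500, adjusted p = 0.00746). In the 4 non-endocrine sums Elavl4 and Celf6 lay between 0 and 6.65 CPM and Srrm3 and Nova1 between 0 and 9.04, against 36.5 or more for Elavl4 (median 71.6), 11.8 to 38.2 for Celf6, 17.4 to 36.7 for Srrm3 and 6.69 to 21.0 for Nova1 in the endocrine sums. Of these 4 genes Nova1 was the one whose groups overlapped.

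Khdrbs3 had 3.93 and 15 CPM in endothelial cells and 13.3 and 18.1 in stellate cells, against 34.9 to 62.3 in the endocrine sums with a median of 46.4 (-1.83, SE 0.37, adjusted p = 0.000286). Esrp1 had 7.86 and 17.5 in endothelial cells and 13.3 and 9.04 in stellate cells, against 21.4 to 51.4 with a median of 38.1 (-1.52, SE 0.41, adjusted p = 0.00488). Snrnp70, the U1 protein, had 114 and 138 in endothelial cells and 66.5 and 181 in stellate cells, against 183 to 256 with a median of 209 (-0.79, SE 0.20, adjusted p = 0.00274). The groups did not overlap for these 3 genes, which were called on the same sums. Celf1 had 39.3 and 50.1 in endothelial cells and 19.9 and 54.2 in stellate cells, against 50.9 to 104 with a median of 81.2 (-0.94, SE 0.27, adjusted p = 0.00802), a range that overlapped. Qk, known for splicing in glia, vessels and muscle, stood the other way: it had 130 and 50.1 in endothelial cells and 59.8 and 163 in stellate cells, against 5.36 to 17.3 with a median of 13.2 (3.01, SE 0.33, adjusted p = 1.73e-08). Celf2 had 23.6 and 52.6 in endothelial cells and 159 and 81.4 in stellate cells, against 29.3 to 45.5 with a median of 34.9 (0.99, SE 0.25, adjusted p = 0.00284). All 6 and 21 Celf2 UMIs of endothelial cells lay in the cluster led by duct markers, and with thinned sums Celf2 missed the threshold (0.85, adjusted p = 0.184). Of the other genes past the threshold Hnrnpa1 (0.68), Clk1 (0.55), Srsf2 (0.74) and Mbnl1 (0.47) rose and Srsf1 (-0.84) fell, with adjusted p-values of 0.00996 to 0.046. Of the 16 stress and early genes 12 rose in the non-endocrine types and none fell. Without TMM the split was 12 higher and 8 lower, and Snrnp70 (-0.48, adjusted p = 0.0774) and Celf1 (-0.63, adjusted p = 0.101) missed the threshold. With thinned sums 9 passed in place of 17, and Snrnp70 (-0.61, adjusted p = 0.0677) and Celf1 (-0.50, adjusted p = 0.369) again missed it.

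**Figure D2:**
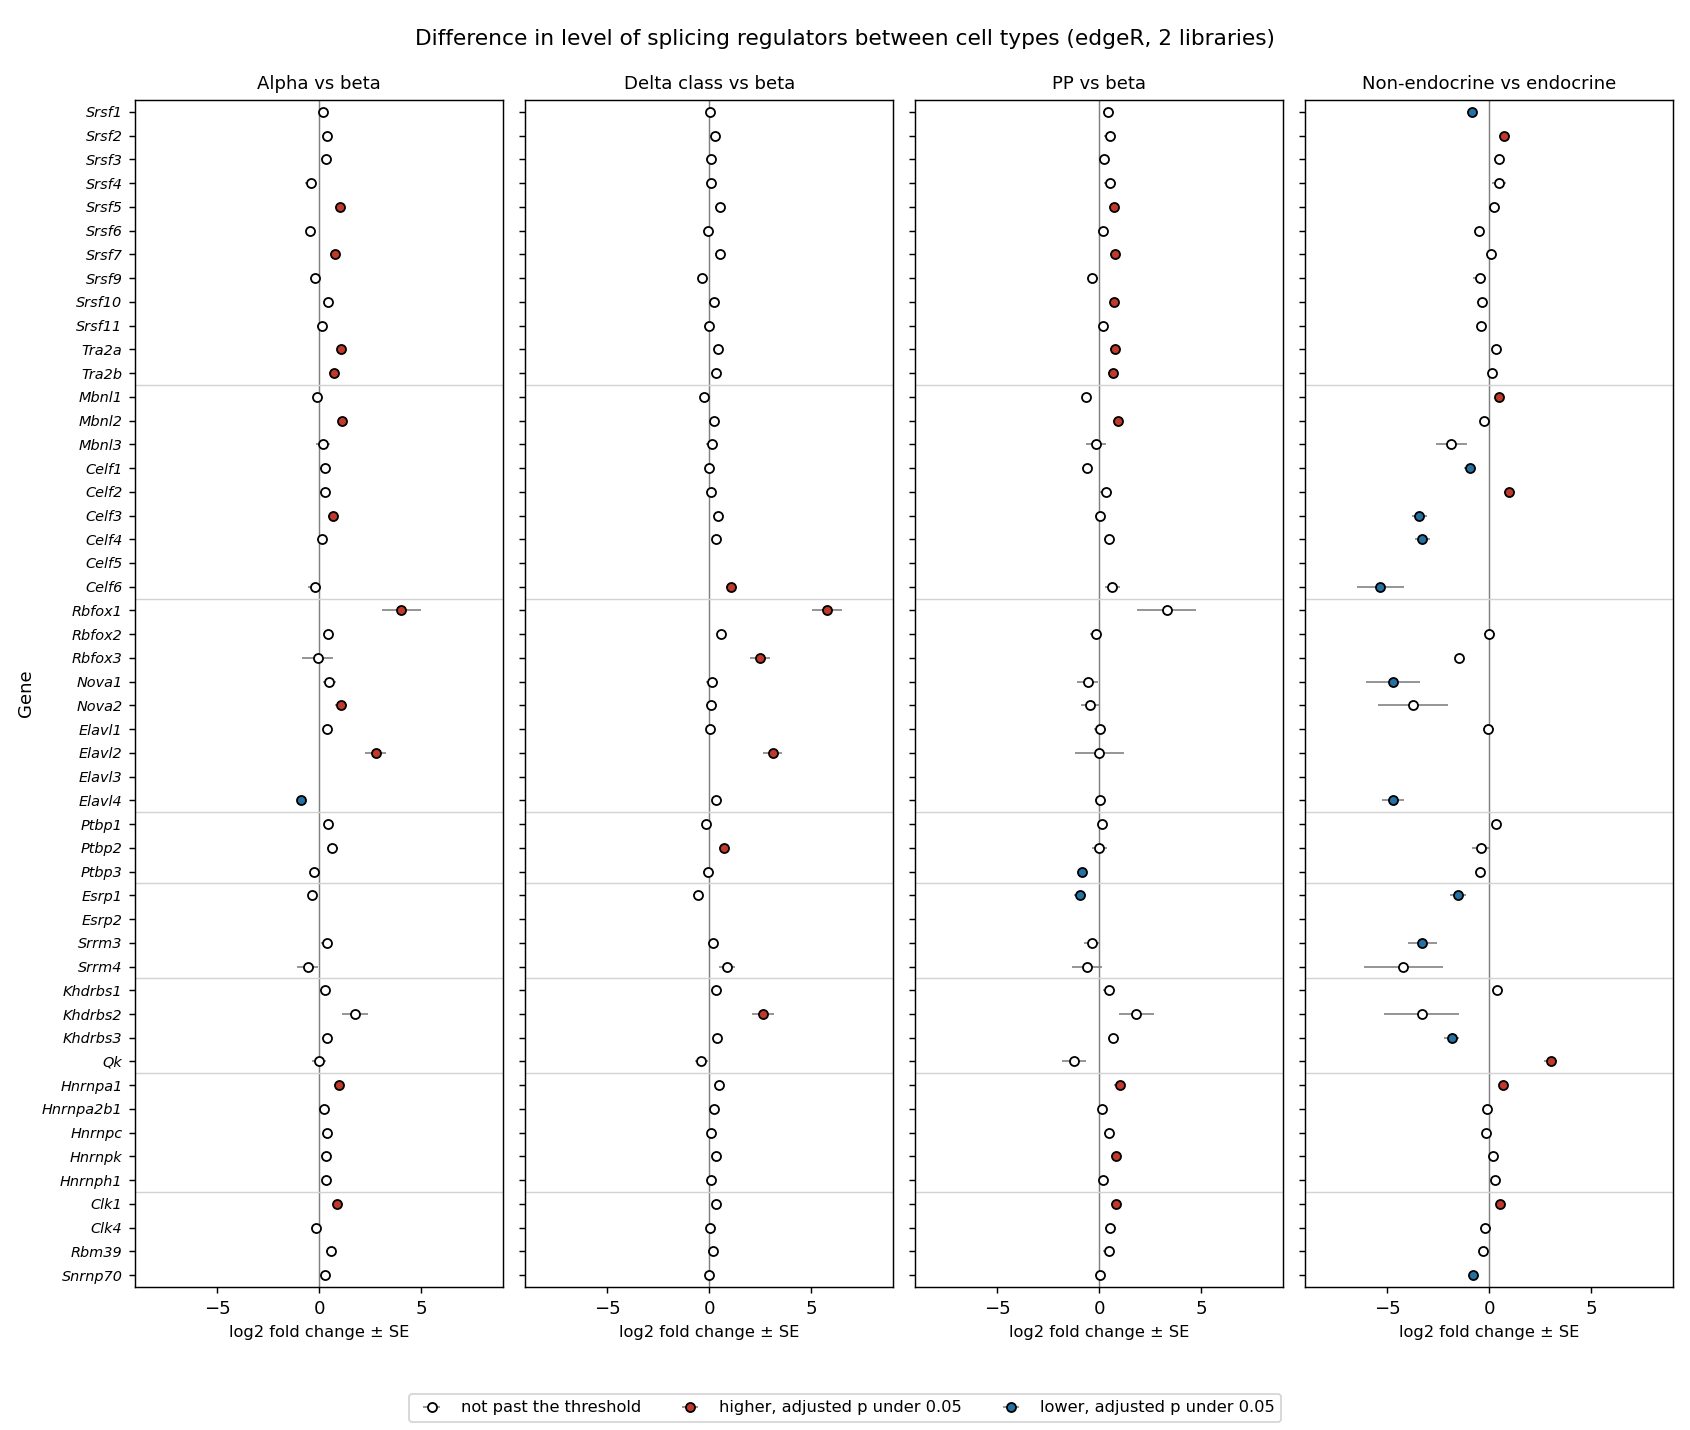
Log2 fold change of each listed gene in the 4 comparisons (alpha, delta class and PP against beta, and non-endocrine against endocrine types), with bars of 1 standard error and filled points for genes past the adjusted threshold; genes with 0 UMIs on one side of a comparison are left out of it. Tra2a, Tra2b, Srsf5 and Srsf7 lie to the right of 0 past the threshold in alpha and PP cells, of which only Tra2a and Srsf5 in alpha cells passed without TMM, and Celf3, Celf4 and Elavl4 lie far to the left in non-endocrine types.

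The listed genes were rich in transcripts other than full-length coding ones. Over all kept cells the members with at least 50 transcript UMIs in each library had a median retained-intron share of 12.1% and 9.85% in the 2 libraries, beside 0.562% and 0.503% over 8744 protein-coding genes. A decay share of 10% or more in each library was found in 6 of 40 members (15%), beside 292 of 8744 genes (3.34%), and a retained-intron share of 10% or more in 19 of 40 (47.5%), beside 2020 (23.1%). The transcript tables accounted for a median of 49.5% and 50.7% of the members' gene UMIs, beside 81.1% and 80.1% over those genes, so about as many of their molecules were given no transcript. Nova2 had 206 and 165 gene UMIs and 0 transcript UMIs, and how the tables were filtered is not given.

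Khdrbs3 had the largest decay share, 75.0% of 100 UMIs in the first library (exact 95% interval 65.3 to 83.1) and 77.7% of 103 in the second (68.4 to 85.3). Most of these, 71 and 77 UMIs, are molecules of Khdrbs3-202, whose stop codon is followed by a further intron. Srsf7 had 22.0% of 1435 UMIs (19.8 to 24.2) and 25.8% of 1995 (23.9 to 27.7). Hnrnpa1 had 19.2% of 1159 and 19% of 1329, though how reads were split among its near-identical copies is not given. The neighbouring values were lower: Qk had 13.7% of 51 UMIs (5.70 to 26.3) and 14.7% of 68 (7.28 to 25.4), Srsf3 had 10.1% of 572 (7.79 to 12.9) and 14.2% of 494 (11.2 to 17.6), and Srsf2 had 12.7% of 307 and 10.6% of 369. Srsf1, a general SR splicing factor, lay just under 10% with 9.48% and 9.94%. Tra2a (8.18% and 12.3%) and Clk1 (5.47% and 14.0%) were on either side of 10% in the 2 libraries. No decay UMI was read in 15 of the 40 members, beside 6982 of 8744 protein-coding genes.

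**Figure D3:**
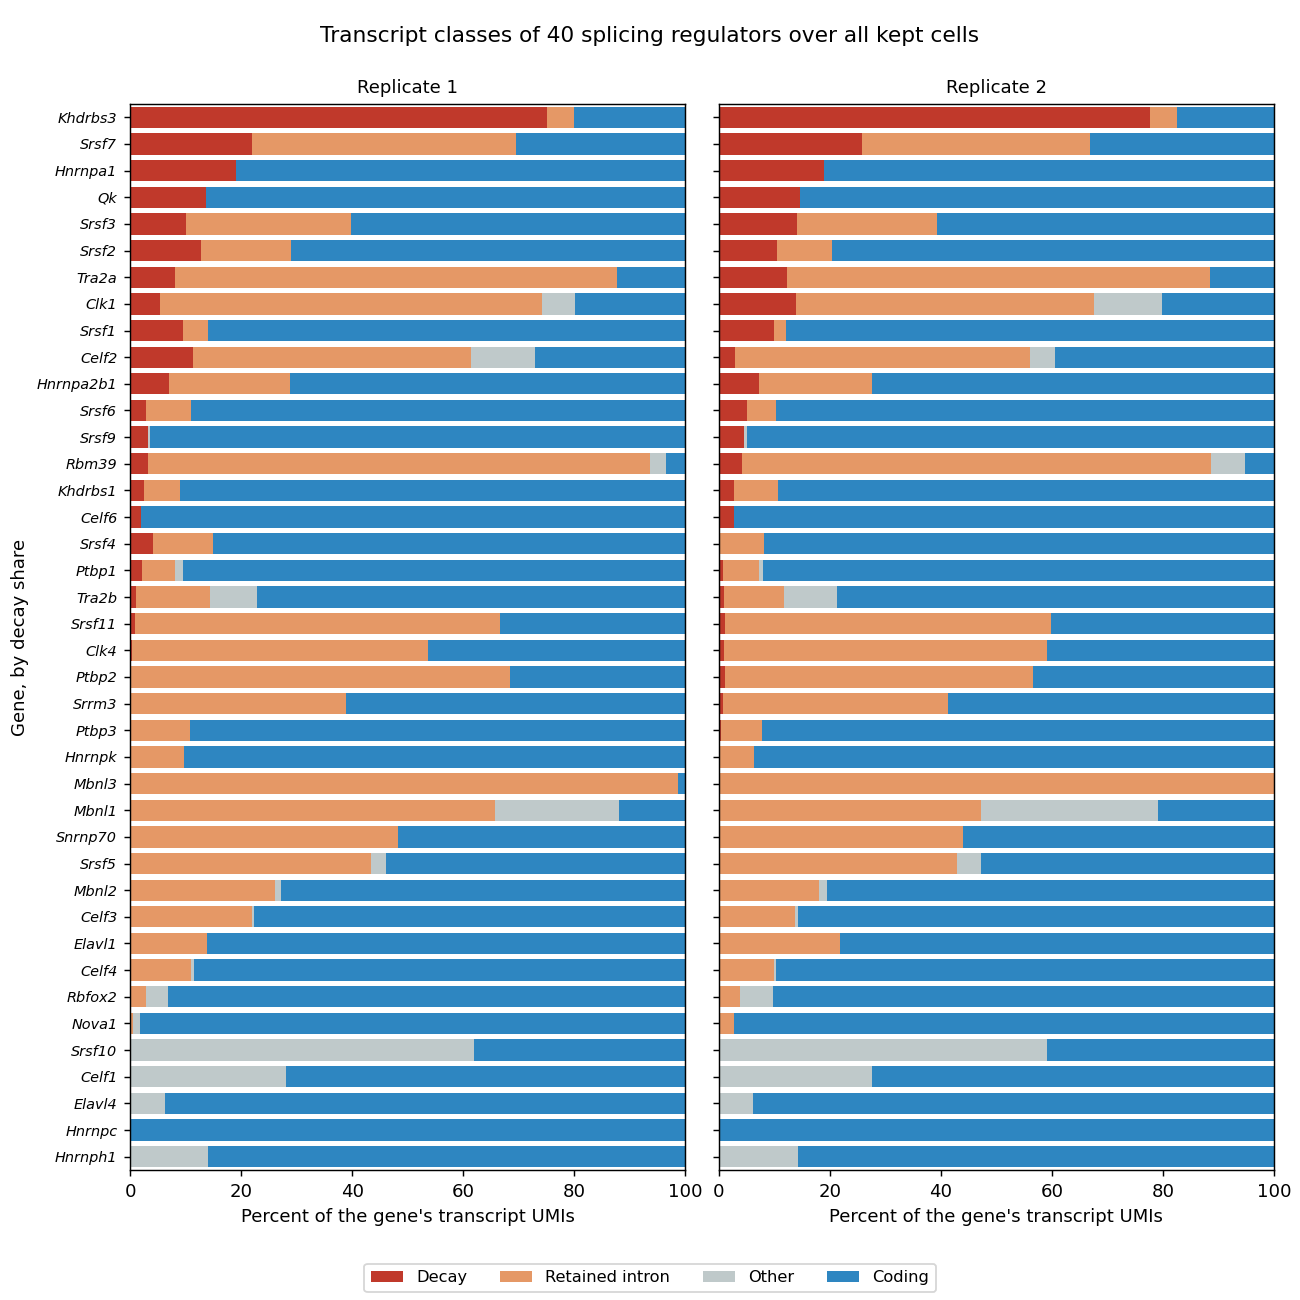
Share of each listed gene's transcript UMIs in coding, decay, retained-intron and other transcripts over all kept cells, in percent, with 1 bar for each library and genes of at least 50 UMIs in each. Decay transcripts are most of Khdrbs3 and 25.8% of Srsf7 in the second library, and retained-intron transcripts are most of Rbm39, Tra2a and Mbnl3.

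Retained-intron transcripts were 98.6% and 100% of Mbnl3 UMIs, 90.3% and 84.5% of Rbm39, 79.4% and 76.2% of Tra2a, 65.8% and 58.7% of Srsf11, 68.7% and 53.6% of Clk1 and 53.4% and 58.2% of Clk4. Further SR genes were Srsf7 (47.5% and 41.2%), Srsf5 (43.3% and 42.9%), Srsf3 (29.7% and 25.1%) and Tra2b (13.3% and 10.9%). Ptbp2 had 68.4% and 55.4%, Mbnl1 65.7% and 47.3%, Celf2 50.0% and 53.0%, Snrnp70 48.3% and 44.1%, and Srrm3 38.9% and 40.6%. Mbnl2 had 26.0% and 18.1%, Celf3 21.9% and 13.8%, Hnrnpa2b1 21.9% and 20.3%, and Elavl1, the ubiquitous Hu protein, 13.8% and 21.8%. The annotated models behind these shares differ in what a read of them shows. Of the most abundant retained-intron model of each of these 19 genes, 4 have a single exon (those of Tra2a, Ptbp2, Elavl1 and Tra2b), 8 begin within 100 bases of the 5′ end of the gene's main coding transcript and 9 begin over 1000 bases downstream of it. Rbm39-205, with 3088 and 2694 UMIs, has 2 exons and 1008 bases, begins 26 bases after the 5′ end of the coding transcript and ends 31320 bases before its 3′ end. Tra2a-203 is a single exon of 3788 bases that begins at that 5′ end and ends 16315 bases before the 3′ end, and Mbnl3-206 begins 78620 bases downstream of it. Snrnp70-216, by contrast, has 10 exons over 4008 bases and spans nearly the whole gene, from 84 bases after the coding 5′ end. Molecules assigned to the short or single-exon models do not show a whole transcript with 1 intron kept.

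Poison exon inclusion was taken from the transcripts to which molecules were assigned. With retained-intron transcripts, and for Tra2b also some others, left out, it differed between the SR genes by more than counting error. Inclusion is the share of UMIs on transcripts that contain the exon among those that contain or skip it. The UMIs counted as retained at the exon, and so left out, were 680 and 818 for Srsf7 and 118 and 75 for Srsf3. For Tra2b they were 111 and 145, for Rbm39 3964 and 3490, and for Tra2a 3 and 1. Tra2b had 134 retained-intron UMIs in the second library, so its 145 also hold UMIs of other classes. The counting intervals do not cover this choice. Over all kept cells the Srsf7 poison exon was included in 41.8% (exact 95% interval 38.3 to 45.4) and 43.8% (40.9 to 46.7), that of Tra2a in 39.8% (33.8 to 46.0) and 51.7% (45.9 to 57.4), and that of Srsf3 in 14.4% (11.1 to 18.2) and 18.9% (15.1 to 23.3). That of Rbm39 was included in 37.4% (31.9 to 43.1) and 35.7% (31.0 to 40.6). Lower shares were found for Srsf6 (3.18% and 5.43%), Srsf9 (3.64% and 5.11%), Srsf11 (2.41% and 2.65%) and Tra2b (1.40% and 1.25%). So on this measure Tra2a and its paralog Tra2b, which bind the same kind of GA-rich sequence, stood far apart.

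By cell type the Srsf3 exon was included in 24.3% and 19.6% of alpha UMIs, 14.3% and 11% in the delta class, 27.8% and 31.8% in PP cells and 11.3% and 12.1% in beta cells. Alpha and PP cells were above beta cells in both libraries, and the share of decay transcripts in Srsf3, the test that bears on it, did not pass in PP cells (20.4% and 25.9%, against 8.60% and 8.39% in beta cells, adjusted p = 0.516). The Srsf7 exon was included in 48.1% and 57.6% in alpha cells, 40.8% and 37.8% in the delta class, 32.9% and 34.3% in PP cells and 44.3% and 37.7% in beta cells. For Tra2a the values were 62.5% and 62.9% in alpha cells, 32.2% and 50.0% in the delta class, 29.4% and 59.1% in PP cells and 41.9% and 49.2% in beta cells, so the PP libraries lay on both sides of beta cells. Over all member UMIs decay transcripts were 16.9% in endothelial cells of the second library and 6.08% in the first, and 18.4% in macrophages of the second library and 6.14% in the first. Stellate cells of the second library had 9.70% and those of the first 4.30%, with 4.53% to 8.17% over the alpha, delta class, PP and beta sums. In endothelial cells of the second library decay transcripts were 54.7% of Srsf7, 52.9% of Srsf3, 41.9% of Hnrnpa1 and 15.2% of Rbm39 UMIs. These cells are those with duct-marker cells and the highest stress sum of the types tested, 30460 CPM against 7499 in the first, and the part of either was not tested.

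**Figure D4:**
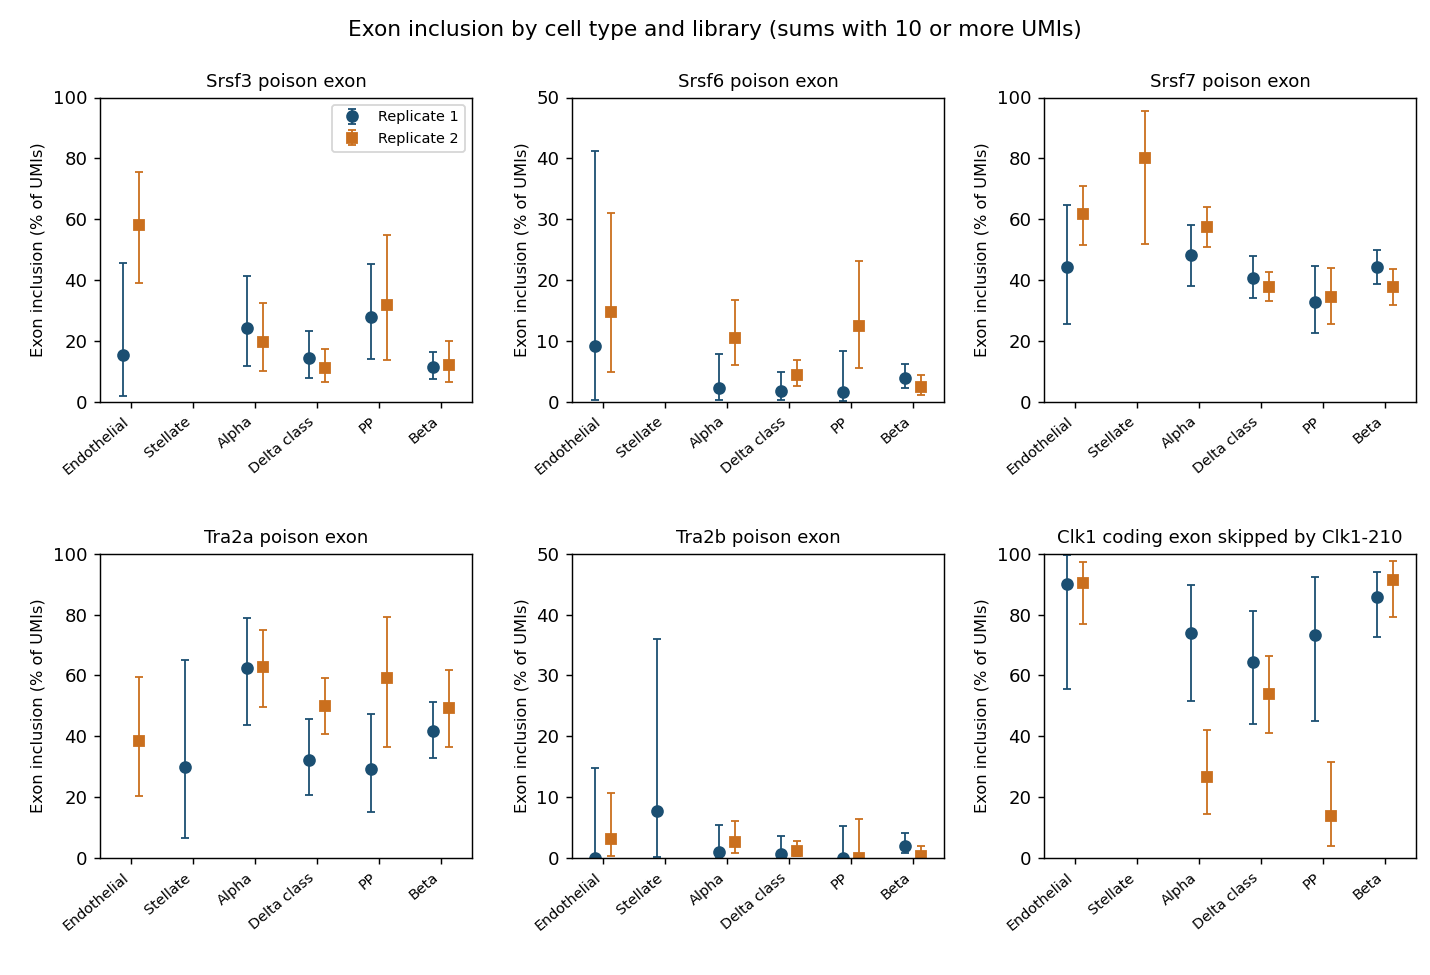
Inclusion of the annotated poison exons, and of the Clk1 coding exon that Clk1-210 skips, by cell type in each library, in percent with exact 95% counting intervals, for values of at least 10 UMIs. Clk1 exon inclusion is 85.7% and 91.3% in beta cells and lowest in PP cells of the second library at 13.8%.

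Clk1 was the listed gene whose transcript classes differed between cell types by a test. Decay transcripts were 4 of 65 Clk1 UMIs (6.15%) and 25 of 50 (50.0%) in PP cells, against 7 of 186 (3.76%) and 4 of 197 (2.03%) in beta cells. The PP share was higher in both libraries, by 2.39 percentage points in the first and 48.0 in the second, a mean difference of 25.2 points (adjusted p = 0.000333, edgeR's diffSpliceDGE). The transcript behind it, Clk1-210, whose early stop is printed above, was 6.15% and 42.0% of Clk1 UMIs in PP cells, where beta cells had 3.76% and 2.03% (adjusted p = 0.00175). Its 21 UMIs in PP cells of the second library came from 17 cells, with at most 3 in 1 cell. The counting intervals of PP and beta cells overlapped in the first library, and without the replicate block the adjusted p-values were 0.240 for the decay share and 0.297 for Clk1-210. In alpha cells decay was 6 of 119 (5.04%) and 33 of 152 (21.7%), which missed the threshold (adjusted p = 0.0517), and in the delta class 10 of 110 (9.09%) and 30 of 225 (13.3%, adjusted p = 0.462). The exon that Clk1-210 skips was included in 73.9% and 26.7% of alpha UMIs, 64.3% and 53.8% in the delta class, 73.3% and 13.8% in PP cells, and 85.7% and 91.3% in beta cells. Beta cells had the highest value of the endocrine types in both libraries. In the first library the counting intervals overlapped: 72.8 to 94.1 in beta, 51.6 to 89.8 in alpha and 44.9 to 92.2 in PP cells, and 44.1 to 81.4 in the delta class. Over all kept cells 184 and 251 Clk1 UMIs were left out at this exon, beside 105 and 139 including and 29 and 96 skipping. The stress sum was also lowest in beta cells and, among endocrine types, highest in PP cells of the second library. Endothelial cells, with stress sums of 7499 and 30460 CPM, included the exon in 90.0% and 90.2%. Stellate cells, at 9264 and 17882 CPM, had 6 and 7 including UMIs and 1 and 0 skipping. A link between the stress sum and this exon was not tested.

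Coding Clk1 transcripts were 33.3% of 45 UMIs and 73.3% of 60 UMIs in the non-endocrine types, against 18.3% of 480 and 14.9% of 624 in the endocrine types, a mean difference of 36.7 points (adjusted p = 0.000819). Clk1-201, the coding transcript, passed likewise (adjusted p = 0.000612). Endothelial cells gave most of these molecules, with 31.0% of 29 and 75.5% of 49 coding, and stellate cells had 6 of 16 and 7 of 11 coding. The share was thus higher in the second library in both types. With clusters led by their own markers only, and cluster 3 as the only delta cluster, the difference was 37.2 points (adjusted p = 0.0163). This setting leaves out the duct-marker cluster and keeps 129 and 10 endothelial cells. Without the replicate block the adjusted p-values were 0.279 for the coding share and 0.228 for Clk1-201.

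**Figure D5:**
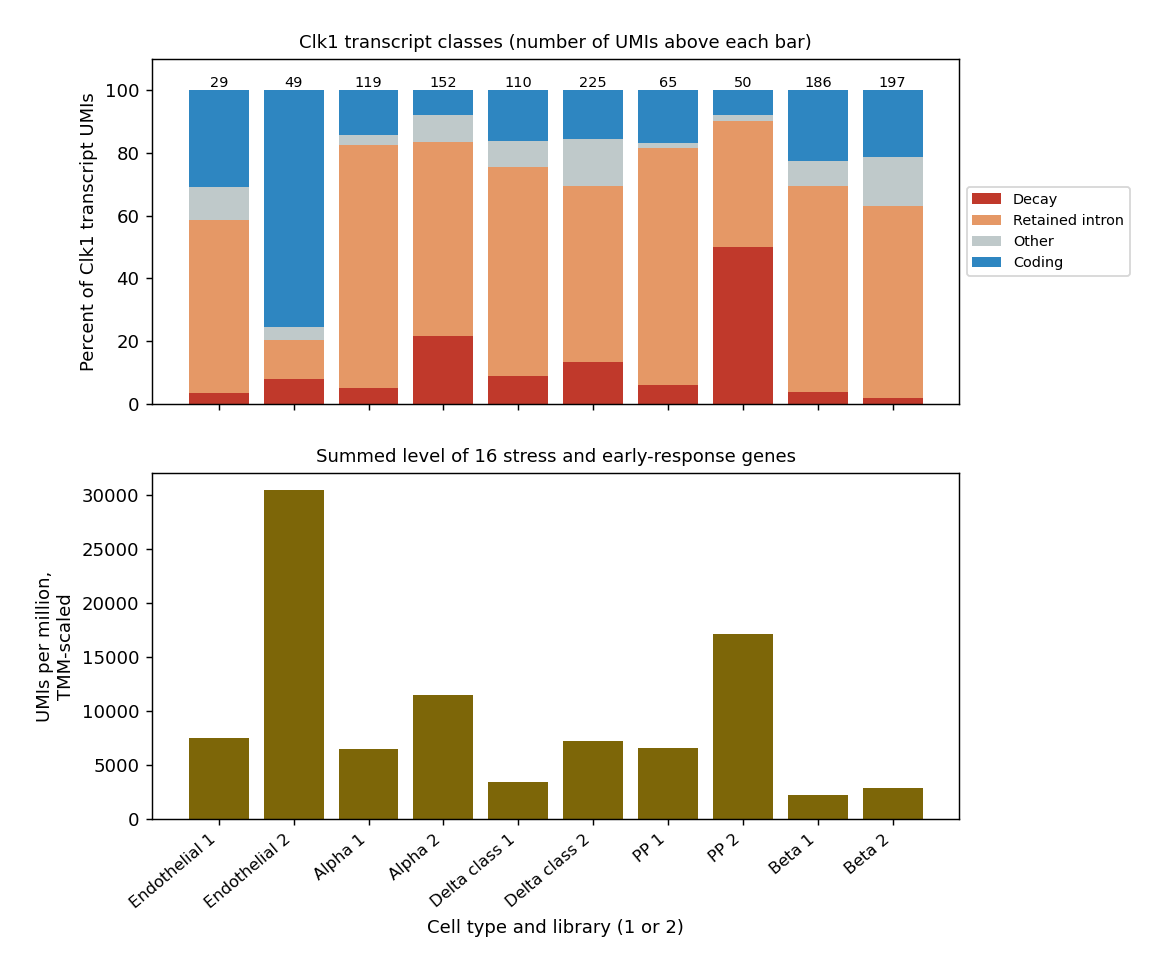
Share of Clk1 UMIs in coding, decay, retained-intron and other transcripts by cell type and library, in percent, with the number of UMIs above each bar. The lower panel gives the summed level of the 16 stress and early genes. Stellate cells, with 16 and 11 Clk1 UMIs, are left out. Decay stands at 50.0% in PP cells of the second library and at 2.03% in beta cells of the same library, while the first library has 6.15% and 3.76%.

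The other listed genes did not pass a test of transcript shares. For class shares, of 74 gene-class pairs in 29 members tested between alpha and beta cells 0 passed, beside 0.629% of all pairs tested; 13 had an unadjusted p under 0.05. Of 81 pairs in 32 members between the delta class and beta cells 0 passed, beside 0.0936%, with 3 under 0.05 unadjusted. Of 74 pairs in 30 members between PP and beta cells 1 passed, beside 0.299%, and of 91 pairs in 35 members between non-endocrine and endocrine types 1 passed, beside 0.241%. For single transcripts 0 of 125 passed in alpha cells, beside 0.686%, with 17 under 0.05 unadjusted, 0 of 138 in the delta class, beside 0.5%, with 18 under 0.05 unadjusted, 1 of 124 in PP cells, beside 0.528%, and 1 of 153 in non-endocrine types, beside 0.552%. Both calls in each family of tests were of Clk1 alone. The nearest others were the share of remaining biotypes of Rbm39 in PP cells (adjusted p = 0.0524), and Celf4, whose retained-intron share was 19.8% and 20.2% in alpha cells, against 7.78% and 7.89% in beta cells (adjusted p = 0.259).

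Genes of the decay machinery and of the core spliceosome were tested for level in the same fit, where over all genes 9.13% rose and 9.91% fell in alpha cells, 8.78% and 5.01% in the delta class, 8.89% and 8.43% in PP cells and 13.6% and 17.1% in non-endocrine types. Of 14 tested genes of nonsense-mediated decay and the exon junction complex, 0 rose and 1 fell in alpha cells, Upf3b (-0.57, adjusted p = 0.0477), 0 rose and 1 fell in the delta class, the helicase Upf1 (-0.85, adjusted p = 0.0177), and 2 rose and 2 fell in PP cells, with Upf1 among those that fell (-1.44, adjusted p = 0.0123). In non-endocrine types Upf3b fell (-0.97, adjusted p = 0.000672). Of 26 core spliceosome genes 1 rose in alpha cells (Prpf3, 0.88, adjusted p = 0.0327), none passed in the delta class, and 4 rose in PP cells, among them the U1 protein gene Snrpa (0.93, adjusted p = 0.00333) and Sf3a2 (1.01, adjusted p = 0.00525). In non-endocrine types 2 rose and 2 fell. Of 18 further SR kinases and related factors 1 rose in alpha cells, the helicase Ddx5 (0.95, adjusted p = 0.00584), 1 fell in PP cells, the SR kinase Srpk1 (-0.80, adjusted p = 0.0396), 0 passed in the delta class and 3 fell in non-endocrine types. Of 22 other hnRNP and related genes 2 rose in alpha cells, 4 rose in PP cells, 0 passed in the delta class, and 2 rose and 2 fell in non-endocrine types. These counts moved with the scaling. The shares over all genes given above are those with TMM, and none is given without it. Without TMM the median log2 fold change of all genes was below 0 in alpha and PP cells. The counts that follow are thus not set against all genes. Without TMM 0 of the decay genes rose and 3 fell in alpha cells, 0 rose and 6 fell in PP cells, and 2 rose and 1 fell in non-endocrine types. Of the spliceosome genes 0 rose and 2 fell in alpha cells, 0 rose and 3 fell in PP cells, and 4 rose and 0 fell in non-endocrine types. Of the SR kinases and related factors 0 rose and 3 fell in alpha cells, 0 rose and 6 fell in PP cells, and 0 rose and 1 fell in non-endocrine types. Of the other hnRNP genes 1 rose and 0 fell in alpha cells, 0 rose and 3 fell in PP cells, and 4 rose and 1 fell in non-endocrine types.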

How the data were processed

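UMI counts per gene and per transcript were deposited by the authors for single islet cells, with a table of their clusters and cell types. The submitters' processing notes name Seurat and mm10; the aligner, counting tool, strand setting and what the table filter left out are not given in the sources used here. Counts were summed per library and type where a type held 20 or more cells in both libraries, which left 6 types and 12 sums. Every library gives every type, so the library is the shared source that pairs the sums and was kept as a block. Levels were tested with edgeR 4.0.16 in R 4.3.3 (TMM, filterByExpr, type plus library, quasi-likelihood test, 5 residual degrees of freedom) on 13265 genes, and adjusted p under 0.05 was called. Macrophages were too few (62 and 7 cells) and are not tested. Transcripts were joined to GENCODE M21 for biotypes and sequences (69648 of 69994, 99.926% of UMIs). Shares of classes and transcripts were tested with diffSpliceDGE over all genes with at least 50 UMIs over the types compared in each library and features of at least 10 UMIs, and single transcripts also of 5% of the gene on either side. Intervals are exact (Clopper-Pearson for shares, binomial for ratios of counts) at 95% and cover counting error only. Scrublet in scanpy 1.11.5 called 6 and 14 cells as doublets, too few to be informative, so no cell was removed; an alternative left out the 6% with the highest scores (289 and 66 cells). The fits were also run on simulated counts. These changed well-read genes in alpha cells alone, with no difference between libraries, so they do not check the calls of the other comparisons. The alternatives were DESeq2 1.42.0, no TMM, no filter, no library block, thinned sums, own-marker clusters, a minimum of 20 UMIs, joined decay and retained-intron classes, each replicate left out and, chosen after seeing the data, no cluster 16. Own-marker clusters were those led by markers of their label. Of the delta class only cluster 3 was kept, though delta markers also stood highest in clusters 7 and 8. Genes named in full were up to 12 per comparison by adjusted p, members with a called share, members of 10% or more decay or retained-intron transcripts in each library, and the highest and lowest of each role; other lists give up to 2 genes. The members, lists and rules were chosen with earlier results of these data known. 1 sequence and 1 gene that these rules select are not reported here.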

Additional observations from a re-analysis of the deposited data

How the results depend on the processing

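The number of listed genes past the threshold depended most on scaling, library block and depth. Without TMM the count in PP cells was 5 in place of 11, and the members' median log2 fold change turned to -0.082 in alpha cells and -0.20 in PP cells. The median of all genes also turned below 0 in both, and no share over all genes is given for any count without TMM. Without the replicate block of library it was 5 in alpha cells and 0 in PP cells, in place of 12 and 11, and the called class and transcript shares of Clk1 gave 0 in PP cells and 0 in non-endocrine types; the block changed no other count by over 1.5 times. With sums thinned to the smallest total of each library, where 29 members could be tested, the counts were 1 in alpha cells, 0 in the delta class, 0 in PP cells and 9 in non-endocrine types, whose median became 0.13. With no filter the PP count was 4. Without cluster 16, a setting chosen after seeing the data, the delta class had 2 in place of 6. Own-marker clusters gave 2 class shares (Clk1 decay and the remaining biotypes of Rbm39) and 2 transcripts in PP cells in place of 1 each, and gave Celf2 -3.49 in non-endocrine types, where the 129 and 10 endothelial cells left held 0 and 0 Celf2 UMIs and the stellate sums were the same 24 and 9 UMIs, so it is no reversal of the stellate level. Joining decay and retained introns gave 0 class shares in PP cells, and leaving out the cells with the highest doublet scores gave 2 transcripts in non-endocrine types. DESeq2 kept 36 and lost 5 of the calls named in full, and removing top doublet scores kept all 41. Leaving out a replicate leaves 1 sum per type and no test; no fold change of a named gene changed sign. The cause of these changes was not tested, except that thinned sums hold fewer UMIs and fewer clusters hold fewer cells. Depth limits the share tests: Clk1 had 65 and 50 UMIs in PP cells.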

Other observations

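Macrophages were too few to test, with 62 cells in the first library and 7 in the second. Rbm39 had 558 and 290 CPM there, Srsf7 247 and 452, and Mbnl1 238 and 48.4, without TMM scaling. Decay transcripts were 6.14% of 277 member UMIs in the first library and 18.4% of 114 in the second. The list of stress and early genes summed to 6160 and 25085 CPM in macrophages. Both the decay share and the stress sum were thus higher in the second library, as in endothelial cells. This was not particular to these types, as the stress sum was higher in the second library in every type. The decay share of the members was also higher there in every type but beta cells (5.29% and 5.06%). Whether these move together for a shared reason was not tested.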
